A study of Mus musculus with 4 samples.

Results

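The ETS family is represented here by 10 transcription factor genes, *Ets1*, *Ets2*, *Etv1*, *Etv4*, *Etv5*, *Elf3*, *Ehf*, *Elk3*, *Elk4* and *Gabpa*, chosen by name from the 24012 RefSeq genes of a table of mouse islet RNA-seq. All 10 have a value, and where a gene has more than 1 entry, the entry with the highest mean over the libraries was used. Islets of 3-month-old male C57bl6 mice were pooled, rested in 11 mM glucose overnight and starved for 2 h at 2.8 mM glucose, then kept at 2.8 mM (low glucose) or raised to 16.8 mM (high glucose). There were 2 libraries at each concentration, each from total RNA of 100 islets. No gene was altered in these animals. The paper's methods and the series' design give 12 h for this last step at either concentration, whereas the labels of the 2.8 mM libraries give 2 h, so an unequal time cannot be told apart from the effect of glucose. Since the libraries of both groups come from the same pool, p-values measure the spread between libraries and not between animals.

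ETS factors share a winged-helix DNA-binding domain that recognises a core of GGAA, and many of them are phosphorylated by MAP kinases, which alters their activity. ETS1 is best known from lymphocytes and endothelium. ELF3 and EHF belong to the epithelial branch, ETV1, ETV4 and ETV5 form the PEA3 branch that acts downstream of growth factor signalling, and ELK3 and ELK4 bind DNA together with SRF. GABPA pairs with a separate beta subunit and is known as a regulator of mitochondrial genes. The study counted *Ets1* among the transcription factors regulated by glucose and called its rise significant. It proposes that consensus sites for ETS1 at a lncRNA upstream of *Il1r1* may contribute to the rise of that lncRNA with glucose. The comparison here asks which relatives were expressed beside *Ets1* and how each differed between the glucose concentrations. Islets mix beta, alpha and delta cells with endothelial, immune and some exocrine cells, so each value is an average in which a change in the number of cells of a type cannot be told apart from a change in RNA per cell.

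The promoters of *Elf3* and *Etv5*, the tested members with the largest rise at 16.8 mM glucose, are shown because ETS genes can carry sites for their own family. RefSeq promoters (GRCm38.p6, 250 bases before to 50 after the start) were at hand for 7 of the 10 members, in 11 windows. The core, GGAA or TTCC on the other strand, is in capitals.

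*Elf3*, chr1:135258423-135258722, minus strand: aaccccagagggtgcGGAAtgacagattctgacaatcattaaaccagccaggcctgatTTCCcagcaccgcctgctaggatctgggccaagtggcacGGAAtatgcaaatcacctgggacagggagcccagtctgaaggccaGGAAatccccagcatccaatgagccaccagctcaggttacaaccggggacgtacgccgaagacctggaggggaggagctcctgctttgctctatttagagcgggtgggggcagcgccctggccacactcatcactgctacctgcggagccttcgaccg

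*Etv5*, chr16:22439521-22439820, minus strand: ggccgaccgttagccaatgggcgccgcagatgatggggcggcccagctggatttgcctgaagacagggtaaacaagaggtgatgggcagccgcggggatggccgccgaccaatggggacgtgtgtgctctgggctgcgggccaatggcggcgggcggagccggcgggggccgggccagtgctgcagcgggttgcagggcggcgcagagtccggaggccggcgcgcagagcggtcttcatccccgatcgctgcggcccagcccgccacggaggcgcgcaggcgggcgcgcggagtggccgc

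The window of *Elf3* holds 4 cores, 3 as GGAA and 1 as TTCC, and that of *Etv5* at its farther upstream start holds 0, while the window at the other start of *Etv5* holds 6. Of all 32851 promoter windows, 96.0% hold a core, with a median of 3, and of the 11 member windows 10 do. The longer site CCGGAAGT (or ACTTCCGG) occurs in 3.89% of all windows and in 1 of the members', of *Elk4*. The E-box CACGTG (7.15% of all windows) and the cAMP response element TGACGTCA (1.79%) occur in 0 of the 11. A match or its absence describes these letters only.

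Depth, recovered from the smallest steps in the table, was between 50770000 and 60640000 reads. Among low genes with several exons, 77.2% to 79.2% of values were whole reads (within 0.05) when the length was the genomic span with introns, against 6.2% to 13.0% with the summed exons. The deposited RPKM (reads scaled to length and depth) is therefore read here as reads over the span, which lowers long genes. The defining hormones of islets led their marker lists, with a mean of 22900 RPKM for *Ins2* and 1850 RPKM for *Gcg*. Acinar markers differed between libraries of the same group, with summed levels of 91.2 and 262 RPKM at 2.8 mM and 223 and 465 RPKM at 16.8 mM, and all 9 of them were detected.

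*Elf3* and *Ets2* were the only members above 1 RPKM per span in every library. *Elf3*, an epithelial activator, stood at 3.33 and 4.14 RPKM in the 2.8 mM libraries and at 11.2 and 9.91 RPKM in the 16.8 mM libraries. *Ets2*, a close relative of *Ets1* and a target of MAP kinases, stood at 3.94 and 3.88 RPKM at 2.8 mM and at 5.06 and 4.30 RPKM at 16.8 mM. The ranges of these genes overlapped at 2.8 mM, while at 16.8 mM both libraries lay higher for *Elf3* than for *Ets2*. *Gabpa* followed at 1.18 and 1.06 RPKM at 2.8 mM and 0.935 and 0.875 RPKM at 16.8 mM, which put it across the 1 RPKM line. The other 7 members lay between a mean of 0.567 RPKM for *Elk4* and 0.0529 RPKM for *Etv4*, and *Ets1*, with a mean of 0.187 RPKM, was number 9 of the 10. In the order by level, *Elk4*, *Etv1*, *Elk3*, *Ehf*, *Etv5* and *Ets1* each overlapped the next in their ranges over the 4 libraries, whereas *Ets2* was separated from *Gabpa*, *Gabpa* from *Elk4* and *Ets1* from *Etv4*. Relative to *Ets1*, the mean per span was 38.2 times as high for *Elf3* and 23.0 times as high for *Ets2*.

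**Figure D1:**
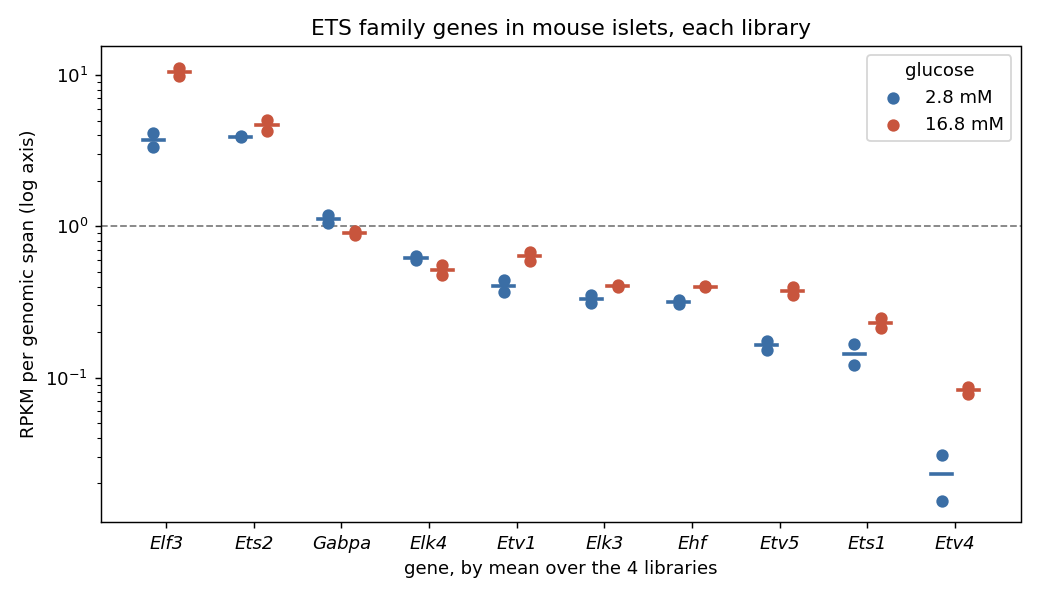
RPKM per genomic span (log axis) of each ETS family gene in each library, with points for the 2 libraries at 2.8 mM (blue) and the 2 at 16.8 mM (red), bars for the group means and a dashed line at 1 RPKM. *Elf3* and *Ets2* lie above the line in every library. The groups do not overlap in any of the 10 genes, nor in 71.3% of all entries tested.

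The span matters for these genes because their introns are of very different length. The annotated coding transcript with the most exon sequence spans 88.1 kb for *Etv1* and 61.8 kb for *Ets1*, with 4.31 kb and 5.06 kb of exons, but only 4.9 kb for *Elf3*, with 2.0 kb of exons. How many reads fell in introns is not known, so the reads of a gene divided by its exons give an upper limit for the exonic RPKM. By this limit 9 of the 10 members exceeded 1 RPKM in every library, and the order changed. *Ets2* came first with a limit of 20.9 RPKM over the 4 libraries and *Elf3* second with 17.5 RPKM, and their ranges overlapped. *Etv1* came next with 10.6 RPKM, ahead of *Gabpa* (5.82 RPKM) and *Elk3* (5.55 RPKM). *Ets1* stayed at number 9 with 2.28 RPKM, and its range overlapped that of *Elk4* (2.90 RPKM). Its span is in some doubt, since 3 of its 4 annotated coding transcripts cover the 61.8 kb used here and the other is shorter in exons but starts farther upstream. With the 122 kb from the first to the last annotated base, its limit was 4.49 RPKM and its place number 6, with a range of 2.92 to 5.95 RPKM that overlapped those of *Gabpa*, *Elk3*, *Etv5*, *Ehf* and *Elk4*. *Etv4* stayed below 1 RPKM, at 0.345 RPKM. On the exon scale *Ets2* was 9.18 times, *Elf3* 7.67 times and *Etv1* 4.65 times as high as *Ets1* by the shorter span of *Ets1*, and 4.66, 3.90 and 2.38 times as high by the longer one, so the excess over *Ets1* depended strongly on the length used.

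Transcription factors with a known role in islet cells are given for comparison, each averaged over all cells of the islet and not only those it marks. Per span, *Mafa* and *Nkx6-1*, which are needed in mature beta cells, had means of 39.4 and 11.8 RPKM. *Irx2*, a factor of alpha cells, had a mean of 2.53 RPKM, and *Hhex*, which marks delta cells, had 1.36 RPKM. *Elf3* and *Ets2* thus lay between *Irx2* and *Nkx6-1* per span, and *Gabpa* below *Hhex*. By the exon limit, taken for these factors too, *Ets2*, *Elf3* and *Etv1* lay between *Irx2* (5.18 RPKM) and *Nkx6-1* (24.8 RPKM). *Gabpa* and *Elk3* lay just above *Irx2*, and *Ets1* below *Hhex* (2.86 RPKM) by its shorter span and above it by the longer one. Of all coding genes, 94.7% had a lower mean per span than *Elf3*, 91.1% lower than *Ets2*, 71.9% lower than *Gabpa* and 48.0% lower than *Ets1*. Beside *Ets1*, then, *Elf3* and *Ets2* had the highest levels of the members by either length, followed by *Gabpa* per span and by *Etv1* per exon, but an RNA level sets no minimum for a factor to act and says nothing of its protein or of the cell type that holds it.

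**Figure D2:**
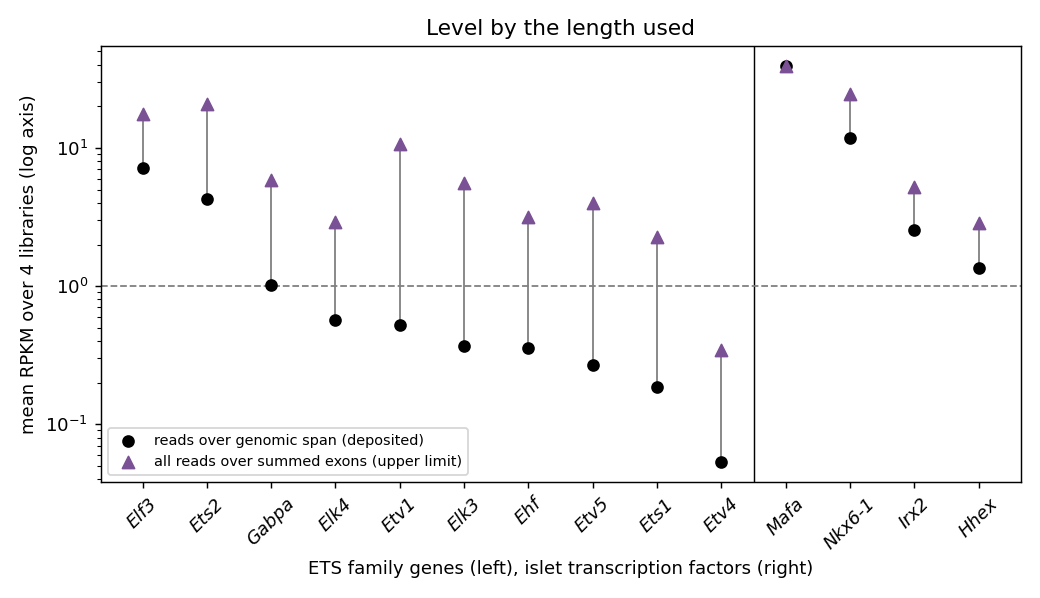
Mean RPKM over the 4 libraries (log axis) of the ETS family genes (left of the line) and of 4 islet transcription factors (right), per genomic span as deposited (circles) and with all reads over the summed exons, an upper limit (triangles). *Ets2* and *Elf3* lead on both scales, *Etv1* moves from 0.519 to 10.6 RPKM, and *Ets1*, drawn with its 61.8 kb span, stays next to last.

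Of the 9 members that could be tested, 3 were higher at 16.8 mM glucose, *Elf3*, *Etv5* and *Etv1*, and none was lower (limma on log2(RPKM + 0.1), Benjamini-Hochberg adjustment over the 16234 entries with a mean of at least 0.1 RPKM). Among all entries tested, 29.8% passed, made up of 8.68% that were higher and 21.2% that were lower at 16.8 mM. The median log2 fold change was 0.26 over the 9 members and -0.12 over all entries tested. With libraries scaled to a common median, 40.4% of entries passed (18.7% higher and 21.7% lower), 7 of the 9 members among them, all 7 higher, and the share of changed entries that were higher moved from 29.1% to 46.4%. Voom on reads reconstructed from the table passed 9 of the 10 members, 8 higher and 1 lower, against 49.0% of entries (14.4% higher and 34.6% lower). Without a minimum level 2 members passed, *Elf3* and *Etv5*, against 7.95% of entries (2.67% higher and 5.28% lower). In all 10 members the groups did not overlap, 8 being higher and 2 lower at 16.8 mM, against 71.3% of all entries tested (22.1% higher and 49.2% lower), so this lack of overlap is common in these libraries.

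*Elf3* had the largest change of the members tested. It averaged 3.73 RPKM (SD 0.575, n = 2) in low glucose and 10.6 RPKM (SD 0.919, n = 2) in high glucose, and both 16.8 mM libraries lay far above both 2.8 mM libraries. On the log2 scale it rose by 1.48 (SE 0.15; adjusted p = 0.0084, limma), and the call held with any of the 4 libraries left out, at log2 fold changes of 1.33 to 1.63. About 952 and 1053 reads stand behind the low glucose values and 3329 and 2464 behind the high ones. In NCBI build 37, *Elf3* occupies bases 137150151 to 137155049 of chromosome 1 (minus strand), and a lincRNA on the other strand, *Gm16606*, runs across its whole span. The library kit does not mark strand, so reads of this pair cannot be told apart.

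*Ehf*, the other epithelial member and a relative of *Elf3*, read 0.327 and 0.307 RPKM at 2.8 mM and 0.401 and 0.396 RPKM at 16.8 mM. The difference on the log2 scale, 0.26 (SE 0.07), missed the threshold (adjusted p = 0.0545, limma). The groups were separate, but the interval of the difference ran from 0.07 to 0.44. Since both genes are known from duct and other epithelia, the markers of these cells are given beside them. The 7 duct markers summed to 41.2 and 36.9 RPKM at 2.8 mM and 42.3 and 49.6 RPKM at 16.8 mM, and of the 6 tested 0 rose and 1, *Krt7*, fell (-0.56 on the log2 scale; adjusted p = 0.0252). The means of the groups differed by a factor of 1.95 for the summed acinar markers, 1.18 for the summed duct markers and 2.83 for *Elf3*. Replicate 2 over replicate 1 gave ratios of 2.88 at 2.8 mM and 2.09 at 16.8 mM for the acinar sum, against 1.24 and 0.884 for *Elf3*. No acinar marker passed the test for glucose among the 9 tested, though their ratios of means ran from 1.77 to 2.46. Their standard errors were wide, 0.54 to 0.66 on the log2 scale against 0.15 for *Elf3*, so the failed tests do not show that they were unchanged. The part of acinar or duct cells in these values was not tested.

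The PEA3 branch was higher at 16.8 mM where it could be tested. *Etv5* read 0.176 and 0.152 RPKM at 2.8 mM and 0.353 and 0.400 RPKM at 16.8 mM. The libraries at 16.8 mM lay well above those at 2.8 mM, on about 600 and 461 reads against 1251 and 1187. The rise was 0.85 on the log2 scale (SE 0.09; adjusted p = 0.0098, limma), or 1.19 with voom, where 0.1 RPKM is not added. Without replicate 2 at 16.8 mM the call was lost (log2 fold change 0.78, adjusted p = 0.053). The gene occupies bases 22381382 to 22439792 of chromosome 16 (minus strand, NCBI build 37).

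*Etv1* read 0.440 and 0.369 RPKM at 2.8 mM and 0.677 and 0.591 RPKM at 16.8 mM. The rise was 0.54 on the log2 scale (SE 0.11; adjusted p = 0.0279, limma). This call needed all 4 libraries, since with any of them left out the adjusted p lay between 0.051 and 0.10 at log2 fold changes of 0.44 to 0.64. The other deposited entry of the gene read 0.425 and 0.356 RPKM at 2.8 mM and 0.650 and 0.573 RPKM at 16.8 mM, so it differed in the same direction. *Etv1* occupies bases 39506669 to 39594802 of chromosome 12 (plus strand, NCBI build 37). *Etv4*, the remaining gene of the branch, was the lowest member and lay under the minimum for the test. It read 0.0154 and 0.0309 RPKM at 2.8 mM and 0.0868 and 0.0784 RPKM at 16.8 mM, on about 14 and 25 reads against 82 and 62. Its ratio of means was 3.57, and voom put the difference at 1.92 on the log2 scale (SE 0.35; adjusted p = 0.0037), while limma without a minimum left it at an adjusted p of 0.0599.

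*Ets1* read 0.166 and 0.121 RPKM at 2.8 mM and 0.247 and 0.212 RPKM at 16.8 mM. Both 16.8 mM libraries were higher than both 2.8 mM libraries, but the gap between the groups was about as wide as that between the 2.8 mM libraries. The difference was 0.44 on the log2 scale (SE 0.12) and missed the threshold (adjusted p = 0.0594, limma), with an interval from 0.11 to 0.77. About 600 and 390 reads stand against 927 and 667, by the 61.8 kb span on chromosome 9 from 32503627 to 32565405 (plus strand, NCBI build 37). With a library left out, *Ets1* ranged from 0.31 to 0.57 (adjusted p from 0.052 to 0.18). Voom on these reads gave 0.68 (adjusted p = 0.0052), and scaling to a common median gave 0.55 (adjusted p = 0.0186). The study reports *Ets1* as significantly higher with glucose, whereas here its call depended on the fit.

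The 9 endothelial markers were low, with *Esam* the highest at a mean of 1.14 RPKM and none at 0. They summed to 4.41 and 3.09 RPKM at 2.8 mM and 5.02 and 3.60 RPKM at 16.8 mM, and 1 of the 8 tested, *Flt1*, rose. Replicate 2 read lower than replicate 1 for this sum at both concentrations, with ratios of 0.701 and 0.716, as it did for *Ets1*, with ratios of 0.73 and 0.859. Lower in replicate 2 at both concentrations were also the summed leukocyte markers (ratios of 0.749 and 0.734), *Gcg* and *Ppy*, whereas the acinar sum was higher. The pattern was thus not particular to endothelial markers. The group means of the endothelial sum, most of it *Esam*, *Plvap* and *Kdr*, differed by a factor of 1.15, against 1.60 for *Ets1*. Of the single markers, *Pecam1* (ratio of means 1.76), *Flt1* (1.67), *Cdh5* (1.60) and *Tek* (1.5) were higher in both 16.8 mM libraries than in either 2.8 mM library, and voom called each of them higher. In the remaining endothelial markers the groups overlapped. Their ratios of means were 1.26 for *Tie1*, 1.07 for *Esam*, 1.02 for *Plvap*, 0.961 for *Kdr* and 0.733 for *Emcn*. Leukocyte markers summed to between 11.3 and 16.5 RPKM, most of it from *Cd68* (mean 8.06 RPKM) and *Lyz2* (mean 3.71 RPKM), and *Cd3e*, which defines T cells, was listed at 0 in every library. Of the 5 leukocyte markers tested, 1 rose, *Cd14*, from a mean of 0.918 RPKM to 1.91 RPKM (0.98 on the log2 scale; adjusted p = 0.0061, limma). The ratios of means were 1.3 for *Csf1r*, 1.09 for *Cd68*, 0.886 for *Lyz2* and 0.643 for *Cd79a*. Among these, the groups were separate in *Csf1r* and, in the other direction, in *Cd79a*. The part of either cell type in the level of *Ets1* was not tested. The genes most like *Ets1* over the 4 libraries, by the distance of their centred log2 RPKM among 6779 genes, were *Hist1h1c* (distance 0.0236), *Tob2* (0.0408) and *Orc6* (0.0473), which on 4 libraries is a description only.

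**Figure D3:**
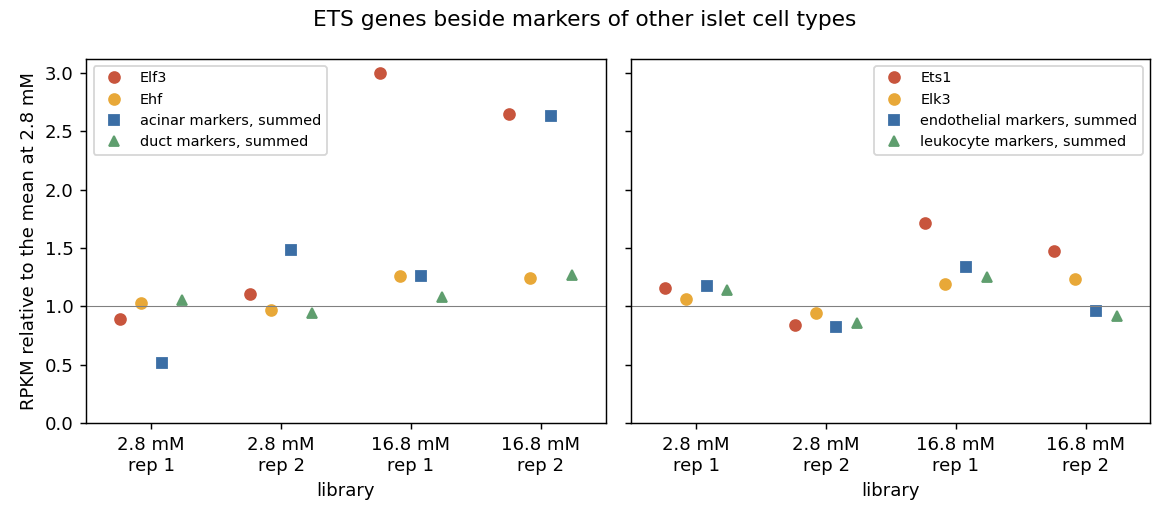
RPKM of *Elf3* and *Ehf* beside the summed acinar and duct markers (left) and of *Ets1* and *Elk3* beside the summed endothelial and leukocyte markers (right) in each library, relative to the mean of the 2.8 mM libraries. The acinar sum is higher in replicate 2 at both concentrations, while *Elf3* is higher in it at 2.8 mM and lower at 16.8 mM. The endothelial sum, the leukocyte sum and *Ets1* are all lower in replicate 2.

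The remaining members did not pass the test. *Ets2* differed by 0.25 on the log2 scale (SE 0.11; adjusted p = 0.159, limma), with an interval from -0.05 to 0.55. Its 16.8 mM libraries were 5.06 and 4.30 RPKM, and the first of them carried most of the difference, since without it the log2 fold change was 0.13. *Ets2* occupies bases 95923682 to 95942658 of chromosome 16 (plus strand, NCBI build 37), and about 3821 to 5825 reads a library stand behind it, the most of any member. The genes of the factors that bind DNA together with SRF had estimates of opposite sign. *Elk3* read 0.351 and 0.311 RPKM at 2.8 mM and 0.395 and 0.409 RPKM at 16.8 mM (log2 fold change 0.22, adjusted p = 0.102), and *Cdk17* overlaps 19658 bp of its span on the other strand. *Elk4* read 0.602 and 0.635 RPKM against 0.553 and 0.477 RPKM (log2 fold change -0.23, adjusted p = 0.124), and *Mfsd4* overlaps 2719 bp of its span on the other strand.

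*Gabpa* had the lowest estimate of the tested members, -0.28 (SE 0.09; adjusted p = 0.0754, limma), with an interval from -0.51 to -0.05. It averaged 1.12 RPKM (SD 0.0881, n = 2) in low glucose and 0.905 RPKM (SD 0.0425, n = 2) in high glucose, and its groups were separate. With libraries scaled to a common median the estimate was -0.17 (adjusted p = 0.0504), whereas voom called the gene lower (-0.31, adjusted p = 0.0086). The gene occupies bases 84835369 to 84864024 of chromosome 16 (plus strand, NCBI build 37), where *Atp5j* overlaps 502 bp on the other strand. The log2 fold changes were -0.09 for *Gabpb1* and -0.19 for *Gabpb2*, the beta subunits that complete the GABP complex, and neither passed the test.

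Of 15 partners and regulators of ETS factors, all were tested, 2 rose and 3 fell, which is 33.3% against the 29.8% of all entries, and their median log2 fold change was -0.09. *Spry4*, a feedback inhibitor of growth factor signalling, read 0.192 and 0.146 RPKM at 2.8 mM and 0.563 and 0.470 RPKM at 16.8 mM (log2 fold change 1.2, SE 0.13; adjusted p = 0.0091, limma). *Dusp6*, the phosphatase that inactivates ERK, read 1.95 and 1.40 RPKM against 3.67 and 3.08 RPKM (log2 fold change 0.98, adjusted p = 0.0253). *Spry2*, of the same family as *Spry4*, went the other way, from 1.87 and 1.65 RPKM to 1.29 and 1.05 RPKM (log2 fold change -0.55, adjusted p = 0.0389). The related *Spry2* and *Spry4* thus changed in opposite directions, and the part of growth factor signalling in these values was not tested.

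*Rfwd2*, the ubiquitin ligase also called COP1 that marks ETV1, ETV4 and ETV5 for degradation, fell from 0.306 and 0.310 RPKM to 0.222 and 0.210 RPKM (log2 fold change -0.37, SE 0.07; adjusted p = 0.0253, limma). *Det1*, the adaptor that links it to its complex, fell from 0.453 and 0.415 RPKM to 0.305 and 0.326 RPKM (log2 fold change -0.36, adjusted p = 0.0323; 0.0706 with libraries scaled to a common median). In both genes the groups were separate. *Cic*, the repressor of the PEA3 genes, had a mean of 5.22 RPKM and a log2 fold change of -0.22 (adjusted p = 0.163). *Srf*, the partner of *Elk3* and *Elk4*, had a mean of 3.64 RPKM and a log2 fold change of -0.44 (adjusted p = 0.0527), and *Mapk3*, which encodes ERK1, had a mean of 14.3 RPKM and a log2 fold change of -0.04. With a library left out, *Spry4* passed each time (adjusted p from 0.012 to 0.047) and *Dusp6* 1 time of 4, while the 3 lower calls were lost whichever library was left out.

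**Figure D4:**
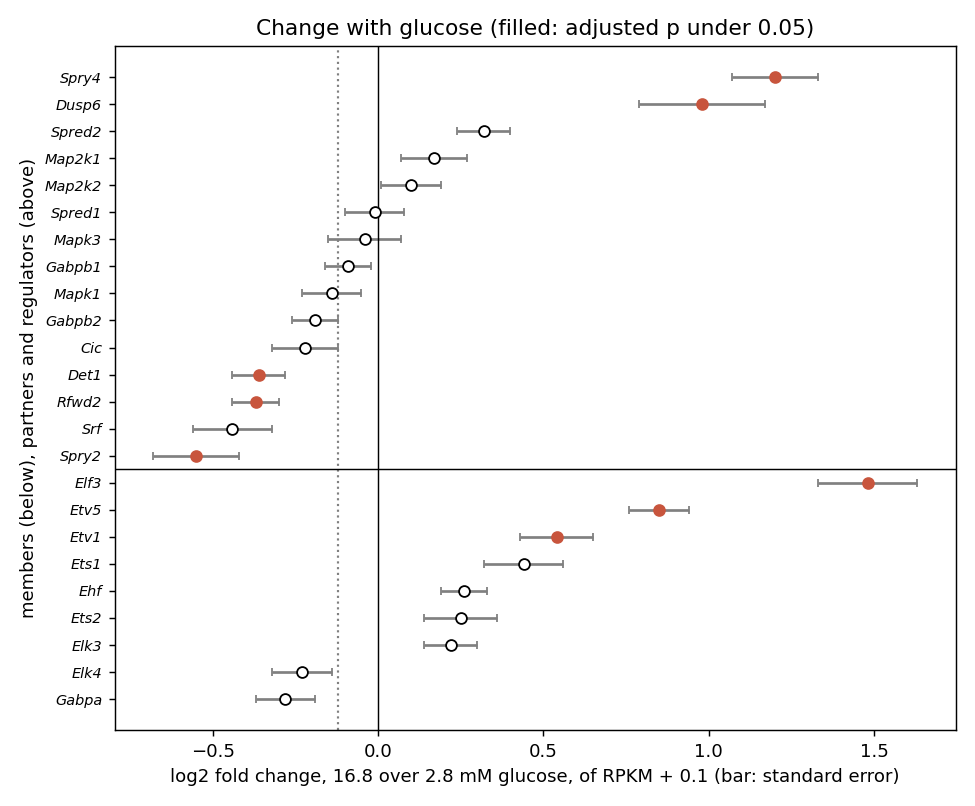
Log2 fold change of RPKM + 0.1 between 16.8 and 2.8 mM glucose, with the standard error as a bar, for the 9 members tested (below the line) and the 15 partners and regulators (above it); filled points have an adjusted p under 0.05, and the dotted line is the median of all entries tested, -0.12. *Elf3* at 1.48 and *Spry4* at 1.2 lie farthest to the right.

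The other 16 genes of the family give the context. Only 7 reached the minimum for the test, and 0 of them passed at an adjusted or an unadjusted p under 0.05 (limma). Of all entries tested, 29.8% passed by adjusted p. Voom fitted 10 of the 16 and passed 2, *Elf2* as lower and *Etv6* as higher, against 49.0% of all entries. The highest were *Erf*, a repressor, with a mean of 1.48 RPKM, *Elf2* with 1.42 RPKM and *Etv3* with 1.34 RPKM, each above *Gabpa* and below *Ets2*. Their log2 fold changes were 0.05, -0.21 and 0.03 (adjusted p = 0.782, 0.146 and 0.887). By the exon limit *Elf2* reached 30.7 RPKM and had a higher limit than any of the 10 members, on a span of 68.2 kb.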

How the data were processed

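RNA-seq of total RNA (TruSeq v2 kit) was measured in the 4 islet libraries, and the authors deposited 1 table of RPKM values with 33923 entries. The submitters' processing notes name STAR, bedtools, DESeq and mm9, and the study's methods describe them, with reads counted over exons, for sorted beta and alpha cells. Versions, strand and the length behind this table's RPKM are not given in the sources used here. Entries of a gene that repeat the same values were merged, leaving 28047. Spans and exons come from GENCODE M1 on NCBI build 37, matched by symbol for 92.6% of coding genes. Reads were estimated as RPKM times span and recovered depth. Intervals are 95% intervals of limma's moderated fit.

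Groups came from the sample titles. The comparison used limma 3.58.1 in R 4.3.3 on log2(RPKM + 0.1) with a variance trend and without a replicate block, a mean of at least 0.1 RPKM, two-sided p-values and a threshold of 0.05. The added 0.1 RPKM shrinks fold changes of low genes. The test was tried on simulated data. An exact permutation test of 2 against 2 libraries cannot go below 0.333 and was not used. Voom was fitted to genes with a mean of at least 20 estimated reads. Python 3.11.15, pandas 2.3.3, numpy 2.4.6, scipy 1.17.1 and matplotlib 3.10.9 did the rest.

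The members and gene lists were chosen with earlier results of these data known. Genes named are the members, of each list those past the threshold and the 3 with the highest mean, the highest marker of a cell type and markers at 0. Other names (*Krt7*, *Flt1*, *Pecam1*, *Cdh5*, *Tek*, *Tie1*, *Emcn*, *Plvap*, *Kdr*, *Lyz2*, *Cd14*, *Csf1r*, *Cd79a*, *Etv6*, *Gabpb1*, *Gabpb2*, the islet transcription factors and overlapping genes) were added after values were seen.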

Additional observations from a re-analysis of the deposited data

How the results depend on the processing

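The 9 members tested kept the sign of their log2 fold change in each of up to 17 alternatives that gave a value, and *Elf3* kept its adjusted p under 0.05 in each. The count of members changed, 3 in the fit as reported, was 1 with a minimum of 1 RPKM, also with 0.5 RPKM added, since 3 members were then tested. It was 7 after quantile normalization and 7 after median centring, 9 with voom on reconstructed reads with or without the replicate block, and 1 to 2 with a library left out. Over all entries the count of 4845 became 2229 without a minimum, 2593 with a minimum of 1 RPKM, 2628 with 0.5 RPKM added to that, 7781 with voom and the block, and 790 to 1732 with a library left out, where the group of 1 library is assumed to vary like the other. The partners and regulators changed, 5 as reported, became 0 without a minimum, 3 with a minimum of 1 RPKM under either constant, 9 with voom, 11 with voom and the block, and 1 to 2 with a library left out. Of the 10 other ETS genes fitted by voom, 2 passed without the block and 2 with it. All these counts stand beside high shares of all entries in the same fits. Quantile normalization passed 6703 of 16234 entries and median centring 6560 of 16234. Voom passed 6616 of 13512 entries, or 7781 with the block. Members with a mean of at least 1 RPKM, 3 per span, were 9 over summed exons, also 9 with the span of the whole annotated gene (an alternative chosen after seeing the data), and 2 to 3 with a library left out. No member has entries with separate spans to sum.

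With the replicate number as a block, 6950 entries, 6 members (the 3 as reported and *Ets1*, *Ehf* and *Gabpa*, at adjusted p = 0.03, 0.043 and 0.034), 7 partners and regulators and 0 other ETS genes passed. The deviations of same-numbered libraries from their group means correlated weakly (0.13 across 16234 entries), and the labels say only that these libraries share a number. The cause of these shifts was not tested. Precision is limited by 2 libraries a group, and for *Etv4* also by depth, at 14 to 82 reads a library.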
